A study of Mus musculus with 4 samples.

Results

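Transcripts of 10 genes of the activin and bone morphogenetic protein (BMP) pathways were examined in tumour epithelial cells of the mouse mouth. They are Inhba, Inhbb and Fst on the activin side, Bmp2, Bmp4 and Bmp7 on the BMP side, the Id genes Id1, Id2 and Id3, and Bambi. The genes were taken by name from the authors' deposited table, which holds 37574 genes, of which 16219 were tested by the authors. All 10 were found there once each and all 10 were tested. The Tomato-positive group was made up of 2 samples and the Tomato-negative group of 2 samples, each of cells that carried the epithelial surface protein EpCAM. All 4 came from oral tumours of C57BL/6 mice that carried a Bmi1CreER allele and a tdTomato reporter. The mice had received 4NQO, a carcinogen that forms DNA adducts, for 26 weeks, and tumours were taken 24 hours after tamoxifen. Cre in these mice is driven by Bmi1, so Tomato marks cells in which that gene was active around the pulse, together with any progeny made since, and the unmarked cells can include Bmi1-expressing cells that did not recombine.

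Activins are dimers of the beta chains encoded by Inhba and Inhbb. They signal through type II and type I receptor kinases to Smad2 and Smad3, and follistatin, the product of Fst, binds activin and blocks it. BMPs signal through related receptors to Smad1 and Smad5, and the Id genes are among the best known genes they switch on. Id proteins have a helix-loop-helix but no DNA-binding region, and they hold the E proteins, which bind DNA, in inactive pairs. Activin is known from mouse skin as a factor that rises in wounds, and Id proteins are known to be abundant in undifferentiated keratinocytes.

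The deposited levels are FPKM (fragments relative to transcript length and sequencing depth), given once per gene in each fraction. They carry no spread between samples and give no depth per sample, so no SD is printed. The labels do not tie samples to animals, and the deposited q-values then measure only the spread between these samples, which may be technical. A gene is counted as called where its q-value in the authors' deposited table is below 0.05. Every log2 fold is computed from the FPKM, Tomato-positive over Tomato-negative. Bmi1 stood at 7.03 FPKM in Tomato-positive and 3.11 FPKM in Tomato-negative cells, with q = 0.00109 in the authors' deposited table. Epcam stood at 46.4 FPKM in Tomato-positive and 25.1 FPKM in Tomato-negative cells, with q = 0.000405 in that table. In bulk RNA, fewer cells of a type and less RNA per cell cannot be told apart.

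Of the 10 genes, 6 were called higher in Tomato-positive cells (Inhba, Inhbb, Fst, Bambi, Id1 and Id3), 2 were called lower (Bmp4 and Id2), and Bmp2 and Bmp7 were not called. Over all 16219 tested genes, 13.0% were called higher and 14.2% lower, 27.2% in all. The median log2 fold was 0.82 over the 10 genes and 0.02 over all tested genes with a value above 0 in both fractions. With a fold of at least 2 also required, 5 of the 10 were higher, against 7.11% of tested genes, and 1 was lower, against 9.67%. Id1 and Id2 dropped out at that fold. At q below 0.01, 5 were higher, against 9.17% of tested genes, and 2 lower, against 10.3%. At an unadjusted p below 0.05, 7 were higher, against 17.8%, and 2 lower, against 18.3%, Bmp7 being the gene added.

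**Figure D1:**
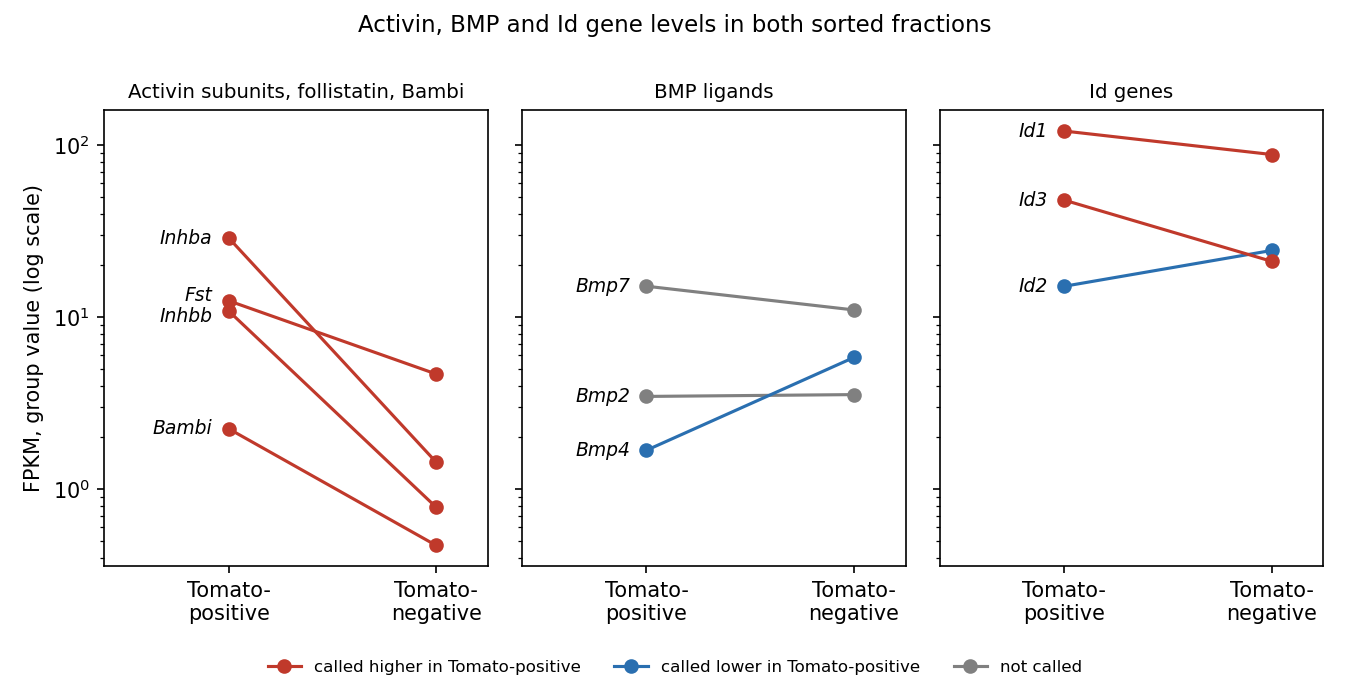
Group FPKM on a log axis for the 10 genes, with Tomato-positive cells on the left and Tomato-negative cells on the right of each panel; each line joins the 2 values of 1 gene and its colour gives the call. Inhba and Inhbb have the steepest lines, 28.9 FPKM in Tomato-positive against 1.43 FPKM in Tomato-negative cells and 10.9 FPKM in Tomato-positive against 0.785 FPKM in Tomato-negative cells, while Bmp4 and Id2 slope the other way.

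The upstream sequences of 2 pairs of genes are shown because they hold the main contrasts: Inhba and Inhbb were higher together, and Id3 and Id2, of 1 family, were called in opposite directions. The sequences are the 250 bases before the gene start, from RefSeq on GRCm38.p6, read 5′ to 3′ on the strand of the gene. Inhba lies at chr13:16011601-16011850 (plus strand), Inhbb at chr1:119422249-119422498 (minus strand), Id3 at chr4:136143572-136143821 (plus strand) and Id2 at chr12:25096093-25096342 (minus strand). Capitals mark the words GGCGCC (a GC-rich Smad1 and Smad5 word), CAGAC or its reverse GTCTG (the general Smad word) and TATAAA or its reverse TTTATA. The AP-1 word TGANTCA was also searched on both strands.
Inhba: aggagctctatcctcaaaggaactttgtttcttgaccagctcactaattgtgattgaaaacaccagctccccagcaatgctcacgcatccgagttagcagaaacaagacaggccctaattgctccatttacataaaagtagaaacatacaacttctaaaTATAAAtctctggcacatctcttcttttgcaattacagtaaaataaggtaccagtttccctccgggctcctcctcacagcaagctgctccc
Inhbb: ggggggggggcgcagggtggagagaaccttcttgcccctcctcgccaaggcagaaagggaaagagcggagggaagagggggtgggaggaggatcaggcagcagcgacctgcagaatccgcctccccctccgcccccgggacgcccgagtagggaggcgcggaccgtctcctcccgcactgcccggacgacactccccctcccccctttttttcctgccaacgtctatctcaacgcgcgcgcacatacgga
Id3: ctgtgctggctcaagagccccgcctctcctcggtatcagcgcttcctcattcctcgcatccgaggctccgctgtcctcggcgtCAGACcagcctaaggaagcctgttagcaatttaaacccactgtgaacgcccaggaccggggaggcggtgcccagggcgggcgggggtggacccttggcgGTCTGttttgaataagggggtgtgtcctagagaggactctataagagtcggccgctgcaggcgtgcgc
Id2: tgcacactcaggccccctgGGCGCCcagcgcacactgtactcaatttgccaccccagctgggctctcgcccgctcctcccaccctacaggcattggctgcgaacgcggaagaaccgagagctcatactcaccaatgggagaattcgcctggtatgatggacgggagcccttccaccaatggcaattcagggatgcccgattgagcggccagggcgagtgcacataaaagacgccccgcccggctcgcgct

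Id3 held CAGAC once, starting 167 bases before the gene start, and its reverse GTCTG once, starting 68 bases before the gene start. Id2 held GGCGCC once, 231 bases before its start. Among 32851 RefSeq promoter windows of this length, 42.2% held CAGAC or GTCTG and 9.59% held GGCGCC. Inhba held TATAAA 91 bases before the start, as 12.4% of windows held that word in either orientation, and Inhbb held none of the 4 words. The AP-1 word, present in 6.75% of windows, was in none of the 4 sequences. The Inhba and Inhbb windows differed in base composition, with G or C at 43.2% and 68% of positions, while the Id3 and Id2 windows both had 62.8%. The windows name letters only and show no binding.

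Both activin beta chains were higher in Tomato-positive cells. Inhba (ENSMUSG00000041324, chromosome 13, 16103684 to 16119044, mm9) encodes the beta A chain and had 28.9 FPKM in Tomato-positive cells, against 1.43 FPKM in Tomato-negative cells. That is a log2 fold of 4.33, or 20.1-fold, with q = 0.000405 in the authors' deposited table, the lowest q it holds, which 2004 genes share. Among tested genes with a value above 0 in both fractions, 71, Inhba included, had a log2 fold at least as high. Inhbb (ENSMUSG00000037035, chromosome 1, 121312042 to 121318825), which encodes the beta B chain, had 10.9 FPKM in Tomato-positive cells, against 0.785 FPKM in Tomato-negative cells. Its log2 fold was 3.79, with the same q in the authors' deposited table, and 102 such genes reached it. With 1 FPKM added to each value, which shrinks the folds of genes with low values, the log2 folds were 3.62 for Inhba and 2.73 for Inhbb. Inhba exceeded Inhbb in both fractions, by 2.66 times in Tomato-positive and 1.83 times in Tomato-negative cells. Inha, which encodes the alpha chain that joins a beta chain to make inhibin, stood at 1.04 FPKM in Tomato-positive and 1.05 FPKM in Tomato-negative cells and was not called. The other 6 listed ligands that signal like activin were not tested. Nodal, Inhbc and Inhbe were listed at 0 in both fractions, and Gdf11, Mstn and Gdf3 stood below 0.4 FPKM in both.

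**Figure D2:**
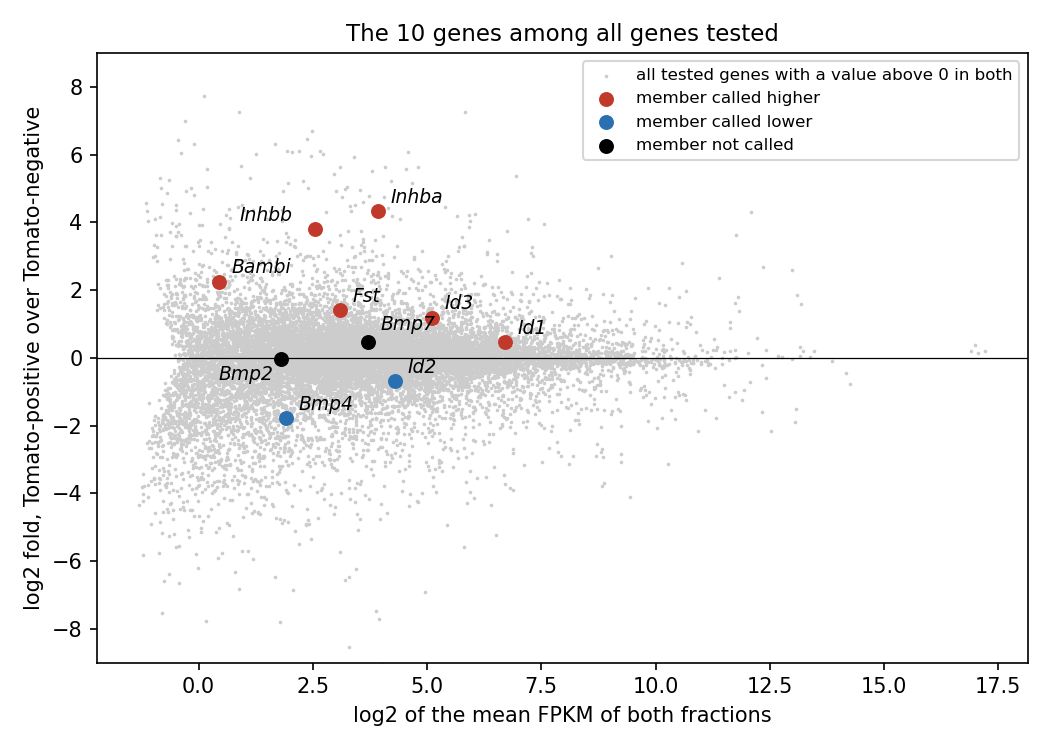
Log2 fold (vertical axis) against the log2 of the mean FPKM of both fractions (horizontal axis) for tested genes, with the 10 genes in colour by call and all others in grey. Inhba (4.33) and Inhbb (3.79) lie at the upper edge of the cloud, and Bmp2 (-0.04) lies on the zero line.

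Fst, which encodes the activin-binding protein follistatin, was higher as well, by a smaller fold than the beta chains. Fst (ENSMUSG00000021765, chromosome 13, 115242470 to 115249159) had 12.5 FPKM in Tomato-positive cells, against 4.67 FPKM in Tomato-negative cells. The log2 fold was 1.41, and the authors' deposited table gives it q = 0.000405. The summed FPKM of Inhba and Inhbb was 39.7 in Tomato-positive and 2.22 in Tomato-negative cells. Per FPKM of Fst, that is 3.19 FPKM of beta chain transcripts in Tomato-positive and 0.475 FPKM in Tomato-negative cells. These ratios are descriptions of 2 group values, and their difference was not tested.

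Of 10 listed activin antagonists and related genes, 6 were tested, with 2 higher and 2 lower, against 13.0% and 14.2% of all tested genes. Their median log2 fold was -0.19. Fst and Fstl3, which bind activin, had log2 folds of 1.41 and 0.48. Besides Fst, Tmeff1, a membrane protein with follistatin modules, was higher, at 9.87 FPKM in Tomato-positive and 4.92 FPKM in Tomato-negative cells. Fstl1, a secreted follistatin-like glycoprotein, was lower, at 8.38 FPKM in Tomato-positive and 20.2 FPKM in Tomato-negative cells. Lefty1, an inhibitor of Nodal, was lower too, at 2.83 FPKM in Tomato-positive and 6.18 FPKM in Tomato-negative cells. Fstl3, a close relative of follistatin that also binds activin, had 6.75 FPKM in Tomato-positive and 4.85 FPKM in Tomato-negative cells and was not called, at q = 0.219 in the authors' deposited table.

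Bambi, which encodes a receptor-like membrane protein that lacks a kinase and dampens signalling of the family, was higher from a low level. Bambi (ENSMUSG00000024232, chromosome 18, 3507955 to 3516402) had 2.24 FPKM in Tomato-positive cells, against 0.471 FPKM in Tomato-negative cells, with q = 0.000405 in the authors' deposited table. The log2 fold of 2.25 became 1.14 with 1 FPKM added to each value. It was the lowest of the 10 genes in Tomato-negative cells and ranked 9 in Tomato-positive cells.

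The BMP ligands did not share a direction. Bmp4 (ENSMUSG00000021835, chromosome 14, 46999089 to 47010344) had 1.69 FPKM in Tomato-positive cells, against 5.84 FPKM in Tomato-negative cells. It was called lower, with a log2 fold of -1.79 and q = 0.000405 in the authors' deposited table. Its locus in that table is shared with Gm15217 and Gm15222, so reads there could be divided between genes. Fibroblast and pericyte markers were called lower in the same comparison in 10 of 10 genes, against 14.2% of all tested genes. The part of such cells in the Bmp4 value was not tested. Bmp7 (ENSMUSG00000008999, chromosome 2, 172693513 to 172765822), the most abundant of the BMP ligands in both fractions, had 15.1 FPKM in Tomato-positive and 11.03 FPKM in Tomato-negative cells. Its log2 fold of 0.46 missed the threshold, with p = 0.0195 and q = 0.0664 in the authors' deposited table. Bmp2 (ENSMUSG00000027358, chromosome 2, 133377895 to 133388621) had 3.46 FPKM in Tomato-positive and 3.55 FPKM in Tomato-negative cells, with a log2 fold of -0.04 and q = 0.943 in the authors' deposited table.

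Summed over Bmp2, Bmp4 and Bmp7, the level was 20.3 FPKM in Tomato-positive and 20.4 FPKM in Tomato-negative cells. Bmp4 gave 8.30% of that sum in Tomato-positive and 28.6% in Tomato-negative cells, and Bmp7 gave 74.6% in Tomato-positive and 54.0% in Tomato-negative cells. These shares describe 2 group values, and their difference was not tested. Among all 16 listed BMP ligands, 7 were tested, of which 1 was higher and 2 lower, against 13.0% and 14.2% of all tested genes. Their median log2 fold was 0.05. Over all 16 listed ligands the sum was 30.3 FPKM in Tomato-positive and 27.3 FPKM in Tomato-negative cells. Bmp5, a ligand close to Bmp7, was the one called higher, at 1.99 FPKM in Tomato-positive and 0.131 FPKM in Tomato-negative cells, with q = 0.00738 in the authors' deposited table. Gdf10, a relative of Bmp3, fell alongside Bmp4, to 0.538 FPKM in Tomato-positive cells, against 3.65 FPKM in Tomato-negative cells. Bmp6 had 4.56 FPKM in Tomato-positive and 0.508 FPKM in Tomato-negative cells, a log2 fold of 3.17 that was not called, at q = 0.0811 in the authors' deposited table. Bmp3 had 2.08 FPKM in Tomato-positive and 2.01 FPKM in Tomato-negative cells and was not called. The table lists Bmp5 and Bmp6 at loci joined with other genes, so their reads could also be divided. The same holds for Id4, Fstl1, Fstl3, Acvr1, Acvr2a, Bmpr1a, Tcf4, Tcf12, Gata3, Zfyve9, Tll1, Pcsk6, Pcolce and Pcolce2 and the markers Dcpp1 and Mpo. Further listed genes share loci too, such as Eng, Rgma and Acvrl1. Markers that do so include Itga6, Trp63, Itgb4, Krt10, Col1a1, Pecam1, Ckm, Myh2, Tnnt3, Casq1, Csf1r and Mrc1. The locus of the muscle marker Acta1 is listed for 160 genes, so the marker sums carry the same limit.

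**Figure D3:**
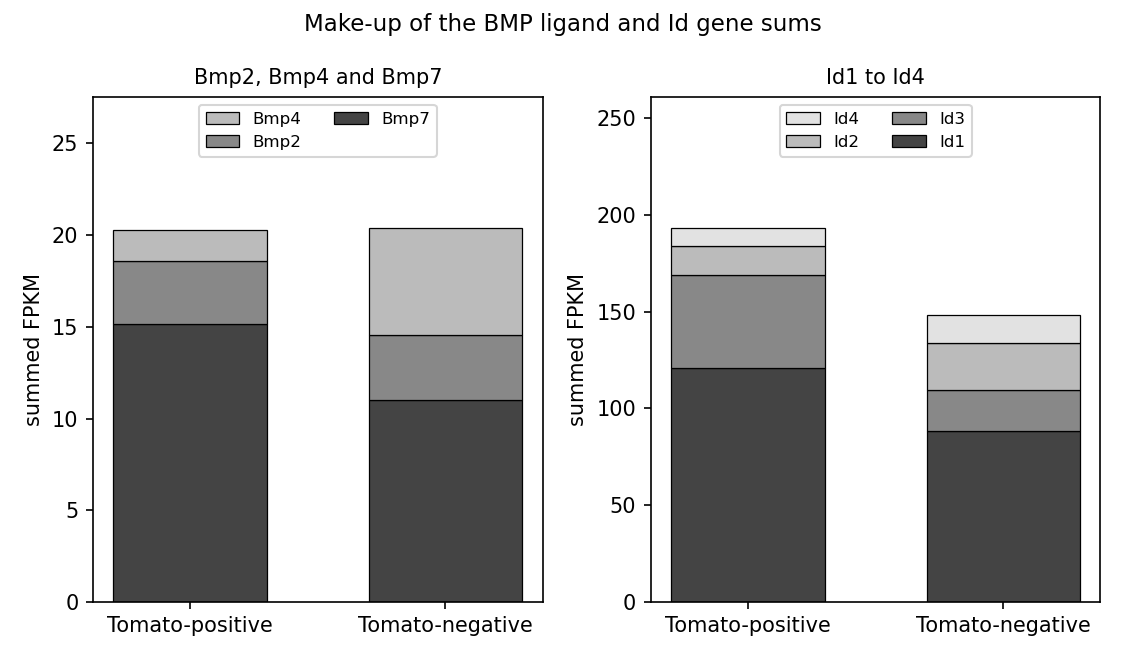
Stacked bars of summed FPKM for Bmp2, Bmp4 and Bmp7 (left) and for Id1 to Id4 (right), with Tomato-positive cells left of Tomato-negative cells in each panel. The BMP bars are nearly equal in height (20.3 FPKM in Tomato-positive and 20.4 FPKM in Tomato-negative cells) with a smaller Bmp4 block in Tomato-positive cells, and the Id bars reach 194 FPKM in Tomato-positive and 148 FPKM in Tomato-negative cells.

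The Id genes, which BMP signalling is known to switch on, went both ways. Id1 (ENSMUSG00000042745, chromosome 2, 152561987 to 152563146) had 121 FPKM in Tomato-positive cells, against 88.3 FPKM in Tomato-negative cells. Its log2 fold of 0.45 was called at q = 0.0454 in the authors' deposited table, close to the threshold, and 24.7% of tested genes had a log2 fold at least as high. Bmp7, with a log2 fold of 0.46, lay just outside that threshold. Id3 (ENSMUSG00000007872, chromosome 4, 135699412 to 135701670) had 48.0 FPKM in Tomato-positive cells, against 21.1 FPKM in Tomato-negative cells, a log2 fold of 1.18 with q = 0.000405 in the authors' deposited table. Id2 (ENSMUSG00000020644, chromosome 12, 25778666 to 25780957) fell to 15.1 FPKM in Tomato-positive cells, against 24.4 FPKM in Tomato-negative cells, a log2 fold of -0.69 with q = 0.00451 in the authors' deposited table. Id4, the remaining member of the family, fell with Id2, to 9.46 FPKM in Tomato-positive cells, against 14.2 FPKM in Tomato-negative cells, with q = 0.0327 in the authors' deposited table.

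Id1 was the most abundant of the 10 genes in both fractions. Id3 ranked 2 and Id2 ranked 5 in Tomato-positive cells, while Id2 ranked 2 and Id3 ranked 3 in Tomato-negative cells. Without a spread between samples, neighbours in these orders cannot be said to differ. Of the summed FPKM of Id1 to Id4, 194 in Tomato-positive and 148 in Tomato-negative cells, Id3 gave 24.8% in Tomato-positive and 14.3% in Tomato-negative cells. Id2 gave 7.82% in Tomato-positive and 16.5% in Tomato-negative cells, and Id1 gave 62.5% in Tomato-positive and 59.6% in Tomato-negative cells. Among the E proteins, the partners of Id proteins, Tcf12 was called higher, at 20.0 FPKM in Tomato-positive and 13.0 FPKM in Tomato-negative cells. Tcf3 (16.1 FPKM in Tomato-positive and 12.6 FPKM in Tomato-negative cells) and Tcf4 (12.2 FPKM in Tomato-positive and 8.67 FPKM in Tomato-negative cells) were not called. The Id sum was 4.00 times the E protein sum in Tomato-positive cells and 4.31 times in Tomato-negative cells. Differences in these shares and ratios between the fractions were not tested.

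Among all 16 listed BMP target genes, 14 were tested, of which 7 were higher and 3 lower, against 13.0% and 14.2% of all tested genes. Their median log2 fold was 0.92. The 7 include Id1, Id3, Bambi, Smad7 and Nog, and the 3 include Id2 and Id4. Bambi, Smad7 and Nog are counted in other role lists as well. Outside the Id genes and Bambi, the homeobox gene Dlx5 was higher, at 10.8 FPKM in Tomato-positive and 4.26 FPKM in Tomato-negative cells. Msx2, another homeobox gene, was higher at 2.31 FPKM in Tomato-positive and 1.20 FPKM in Tomato-negative cells. Dlx3, a homeobox gene of differentiating keratinocytes, fell to 8.66 FPKM in Tomato-positive cells, against 19.8 FPKM in Tomato-negative cells. Smad6, an inhibitory Smad induced by BMP, had 1.98 FPKM in Tomato-positive and 2.31 FPKM in Tomato-negative cells and was not called. Msx1, Hey1 and Gata3 were not called either.

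Secreted BMP antagonists also went both ways, with 2 higher and 2 lower of 6 tested and 12 listed, and a median log2 fold of 0.08. The shares of all tested genes were 13.0% higher and 14.2% lower. Sostdc1, which binds BMPs and also dampens WNT signalling, was higher, at 35.4 FPKM in Tomato-positive and 1.93 FPKM in Tomato-negative cells, a log2 fold of 4.20 with q = 0.000405 in the authors' deposited table. Nog, which encodes noggin, was higher at a low level, 1.05 FPKM in Tomato-positive and 0.214 FPKM in Tomato-negative cells, with q = 0.047 in the authors' deposited table. Nbl1, of the DAN family, fell to 20.6 FPKM in Tomato-positive cells, against 70.7 FPKM in Tomato-negative cells. Grem1, which encodes gremlin, fell to 0.814 FPKM in Tomato-positive cells, against 2.39 FPKM in Tomato-negative cells. Twsg1, which binds BMPs together with chordin, had 34.3 FPKM in Tomato-positive and 43.9 FPKM in Tomato-negative cells and was not called.

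Activins and BMPs share some of their receptors. Of 15 listed receptors and co-receptors, 12 were tested, 3 were higher and 2 lower, against 13.0% and 14.2% of all tested genes, and the median log2 fold was 0.26. The type I receptor genes Acvr1 (12.8 FPKM in Tomato-positive and 7.59 FPKM in Tomato-negative cells) and Bmpr1a (25.9 FPKM in Tomato-positive and 17.05 FPKM in Tomato-negative cells) were higher, with Bambi. Acvr1b, the type I receptor of activin, had 7.37 FPKM in Tomato-positive and 10.2 FPKM in Tomato-negative cells, with q = 0.0647 in the authors' deposited table. The type II receptor genes Acvr2a (5.22 FPKM in Tomato-positive and 5.94 FPKM in Tomato-negative cells) and Bmpr2 (8.67 FPKM in Tomato-positive and 8.34 FPKM in Tomato-negative cells) were not called. The co-receptor genes Rgmb and Hfe2 fell, Rgmb to 4.68 FPKM in Tomato-positive cells, against 7.42 FPKM in Tomato-negative cells, and Hfe2, which is known from muscle and liver, to 0.225 FPKM in Tomato-positive cells, against 2.73 FPKM in Tomato-negative cells.

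Downstream of the receptors, 6 of 13 tested Smads and Smad regulators were higher and 0 lower, at q below 0.05 from Cuffdiff. The shares of all tested genes were 13.0% higher and 14.2% lower. Of the 14 listed, Smad9 was not tested. The median log2 fold of the tested genes was 0.51. At an unadjusted p below 0.05, 1 of the 13 was lower, Zfyve9, an anchor of Smad2, at 17.2 FPKM in Tomato-positive and 22.7 FPKM in Tomato-negative cells. Pmepa1, a Smad-binding inhibitor induced by the pathway, had 56.3 FPKM in Tomato-positive and 12.03 FPKM in Tomato-negative cells, a log2 fold of 2.23. Smad7, the inhibitory Smad, stood at 7.75 FPKM in Tomato-positive and 2.92 FPKM in Tomato-negative cells. The others were Smad1, Smad2, Smad4 and Smurf1, with log2 folds between 0.51 and 0.70. Of 7 listed proteases and their enhancers, 6 were tested, with 3 higher and 3 lower, against 13.0% and 14.2% of all tested genes. Their median log2 fold was -0.0045. Furin, which cleaves activin and BMP precursors, was higher at 43.7 FPKM in Tomato-positive and 19.2 FPKM in Tomato-negative cells. Bmp1 and Tll1, proteases that cleave chordin, were higher, Bmp1 at 26.3 FPKM in Tomato-positive and 9.56 FPKM in Tomato-negative cells. Pcsk6, a convertase, was lower at 9.36 FPKM in Tomato-positive and 35.6 FPKM in Tomato-negative cells, as were Pcolce and Pcolce2, enhancers of procollagen cleavage by Bmp1.

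**Figure D4:**
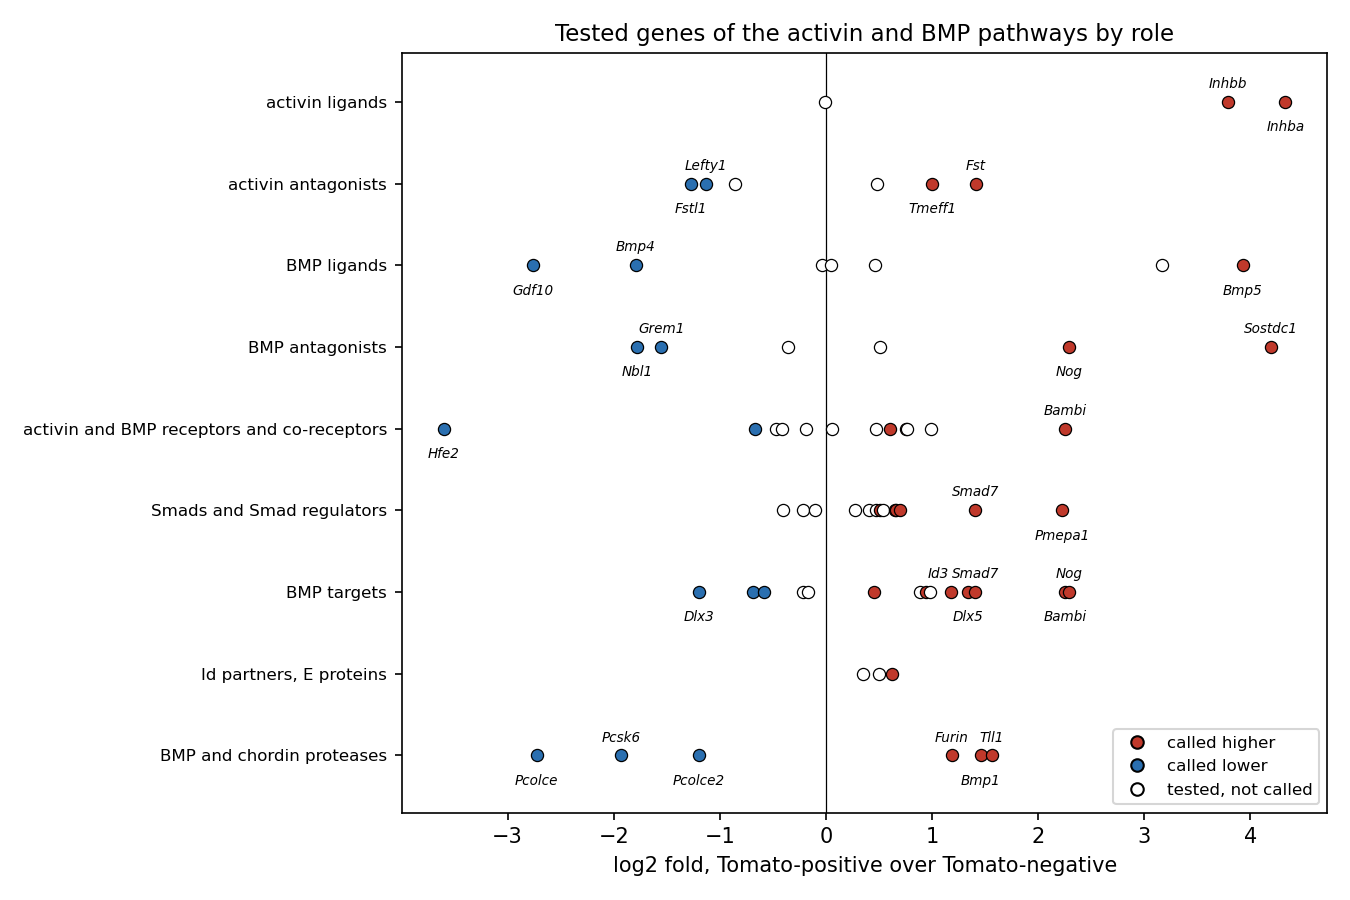
Log2 fold (horizontal axis) of each tested gene in the 9 role lists, 1 row per list, with red for called higher, blue for called lower and white for not called; genes in more than 1 list appear in each, and called genes beyond a log2 fold of 1 are named. The BMP ligand row and both antagonist rows have called genes on both sides. Inhba, Inhbb, Bmp5 and Sostdc1 lie far to the right. The activin ligand, Smad and E protein rows have called genes on the right side only.

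Over the 9 role lists together, 66 of 97 genes were tested, and 24 were called higher and 14 lower. Without the 10 genes, these were 18 and 12 of 56, with a median log2 fold of 0.47. Both sets stand against 13.0% higher and 14.2% lower among all tested genes. Nearest genes were sought among tested genes, with predicted, clone and small RNA symbols left out. Nrg1 (27.3 FPKM in Tomato-positive and 1.47 FPKM in Tomato-negative cells) and Sh2d5 (32.1 FPKM in Tomato-positive and 1.18 FPKM in Tomato-negative cells) were among the 3 nearest to Inhba in the 2 log2(FPKM + 1) fraction values. Those nearest to Bmp4 were Nnmt (1.70 FPKM in Tomato-positive and 5.91 FPKM in Tomato-negative cells), Cyfip2 and Ccl12. Ccl12 was not called, at q = 0.059 in the authors' deposited table. Likeness over 2 values describes a level and a fold and nothing more.

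Markers of other cell types differed between the fractions although both were sorted on EpCAM. Marker counts in this and the next paragraphs stand against 13.0% higher and 14.2% lower among all tested genes. Fibroblast and pericyte markers were lower in 10 of 10 genes. Their summed level was 131 FPKM in Tomato-positive and 646 FPKM in Tomato-negative cells, with Pdgfra at 0.418 FPKM in Tomato-positive and 2.49 FPKM in Tomato-negative cells. Skeletal muscle markers summed to 110 FPKM in Tomato-positive and 1510 FPKM in Tomato-negative cells, and 6 of 7 were lower. Acta1, which was not called, gave 28.0 FPKM of that sum in Tomato-positive and 253 FPKM in Tomato-negative cells. Gland markers summed to 20.8 FPKM in Tomato-positive and 214 FPKM in Tomato-negative cells, with 6 of 8 lower, 1 higher and Dcpp1 listed at 0 in Tomato-positive cells. The part of these cells in the lower values of Bmp4, Gdf10, Id2 and the antagonists was not tested.

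Endothelial markers were higher in 5 of 8 genes and lower in 1. They summed to 41.8 FPKM in Tomato-positive and 26.5 FPKM in Tomato-negative cells, with Cdh5 at 6.13 FPKM in Tomato-positive and 2.16 FPKM in Tomato-negative cells. The lower gene was Cldn5, at 0.809 FPKM in Tomato-positive and 4.43 FPKM in Tomato-negative cells, and Tek and Esam were not called. Neutrophil markers were higher in all 5 tested of 7. Without S100a8 and S100a9, which keratinocytes also make, they summed to 42.2 FPKM in Tomato-positive and 5.32 FPKM in Tomato-negative cells. With those, the sum was 10931 FPKM in Tomato-positive and 1408 FPKM in Tomato-negative cells. Mpo and Ly6g were not tested and stood below 0.7 FPKM in both fractions. Mpo had 0.124 FPKM in Tomato-positive and 0.0630 FPKM in Tomato-negative cells. Ly6g went the other way, with 0.302 FPKM in Tomato-positive and 0.636 FPKM in Tomato-negative cells. Macrophage and dendritic cell markers were lower in 7 of 9 genes, with a sum of 108 FPKM in Tomato-positive and 365 FPKM in Tomato-negative cells. Lymphocyte markers were lower in 2 of 5 tested genes, with a sum of 1.20 FPKM in Tomato-positive and 13.1 FPKM in Tomato-negative cells. The part of these cells in the higher values of Inhba, Inhbb, Id1, Id3 and Bambi was not tested.

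Among keratinocyte markers, which check the epithelial label of both fractions, the basal ones rose and the tested suprabasal ones fell. Basal markers were higher in 6 of 6 genes and summed to 19816 FPKM in Tomato-positive and 4186 FPKM in Tomato-negative cells. Suprabasal markers were lower in all 4 tested of 6, and these 4 summed to 17043 FPKM in Tomato-positive and 35499 FPKM in Tomato-negative cells. Krt4 and Krt13 had too many fragments for the authors' estimate and stayed out of that sum. The part of this shift between layers in the activin, BMP and Id differences was not tested.

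**Figure D5:**
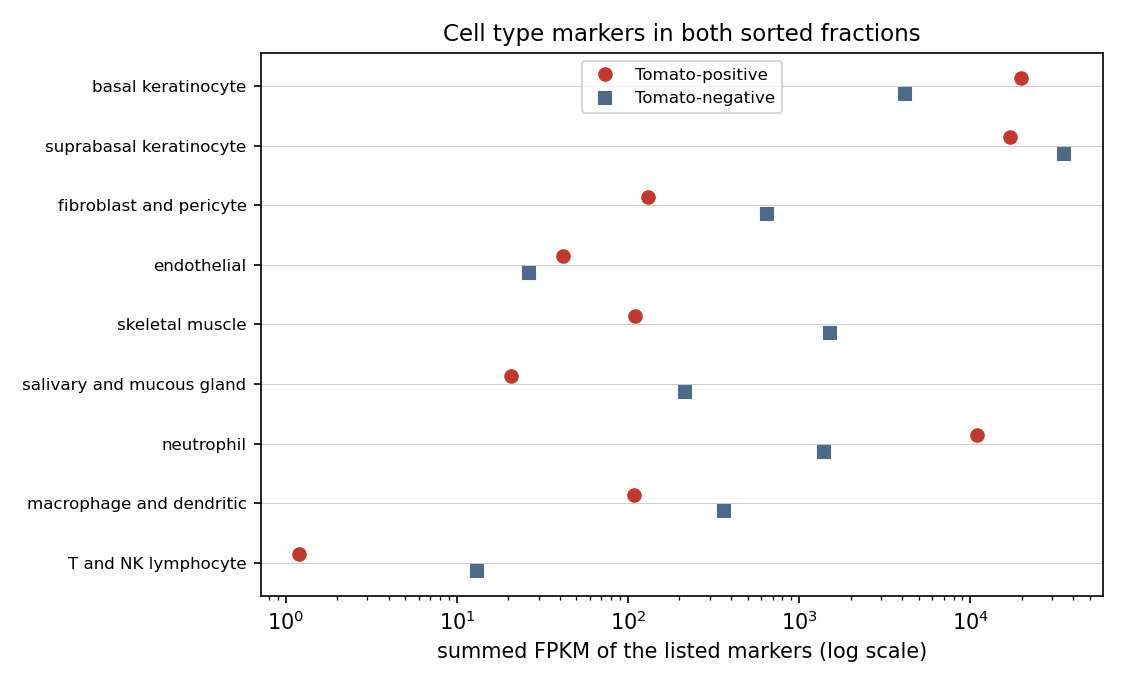
Summed FPKM of each cell type marker list on a log axis, with Tomato-positive cells as red circles above Tomato-negative cells as blue squares. Basal keratinocyte, neutrophil and endothelial sums are higher in Tomato-positive cells, and fibroblast (131 FPKM in Tomato-positive against 646 FPKM in Tomato-negative cells), muscle and gland sums are lower.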

How the data were processed

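RNA was sequenced from 4 samples, 2 of Tomato-positive and 2 of Tomato-negative EpCAM-positive cells. Per the submitters' processing notes, the reads were processed with TopHat and Cuffdiff on mm9; versions, annotation and strand setting were not given in the sources used here. Without the last of these, reads of overlapping genes cannot be told apart. The deposited FPKM are the authors' group values, 1 per gene and fraction, and each p-value and q-value was deposited by the authors with them. The deposited q-values equal a Benjamini-Hochberg adjustment of the deposited p-values over all 16219 tested genes, to a relative difference of at most 4.69e-06. No count test or fit across samples could be made from 1 value per fraction, and the q threshold of 0.05 was the main call. The deposited log2 column holds spreadsheet errors and was not used.

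Coordinates are mm9 from the deposited table, whose starts count from 0 (end minus start equals the GENCODE M21 length for 13964 of 32857 genes), and 1 was added. Promoter sequences were matched by symbol, for 5 of the 10 genes, and none is printed from chromosome 18.

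The 10 genes, the 9 role lists and the 9 marker lists were chosen with earlier results of these data known, so their direction is not independent evidence. The text names all 10 genes, list genes that were called or belong to the same families, Bmi1, Epcam, the listed markers, and the 3 nearest genes to the called gene with the largest fold each way. Values of 2 genes that fall under this rule are not reported here, and 1 of them was left out of its role list. Alternatives changed the threshold, a filter of 1 FPKM, the scaling and the pseudocount. The adjustment function was tested on simulated data. The software was matplotlib 3.10.9, SciPy 1.17.1, NumPy 2.4.6 and pandas 2.3.3 under Python 3.11.15.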

Additional observations from a re-analysis of the deposited data

How the results depend on the processing

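No paired analysis was possible because the deposited table joins both samples of a fraction into 1 value, and leaving out single samples could not be run for the same reason. The count of lower genes among the 10 changed to 1, Bmp4, when a fold of at least 2 was also required. The other 11 of 12 counts recomputed with a q of 0.01, an unadjusted p, a fold of at least 2 or a filter of 1 FPKM, among them the calls over the role lists, were within 1.5 times of the reported ones. Some of those moved close to that limit. The 38 calls over the role lists became 26 at q below 0.01 and 26 with a fold of at least 2. They became 47 at an unadjusted p below 0.05 and 37 with the filter. Centring and rescaling leave the deposited q-values as they are, so the counts under them are no test of stability. Scalings moved values by at most 0.03 on the log2 scale: the median of tested genes was 0.02, rescaling without small RNA shifted values by -0.03 and the upper quartile by -0.03. Added pseudocounts lowered the folds of genes near 0, as for Bambi, at 2.25 without one, 2.04 with 0.1 and 1.14 with 1. With 1 value per fraction, the precision of each FPKM and the depth behind it are not known here.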
